A study of Mus musculus with 2 samples.

Results

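Small artery and arteriole endothelial cells were examined in 2 single-cell RNA libraries of sorted mouse lung cells, one labelled aKO and one labelled aWT. They were picked from the counts themselves, by unique molecular identifiers (UMIs, each standing for 1 captured RNA molecule). Barcodes needed 500 genes or more and no more than 15% of UMIs from mitochondrial genes. Such a barcode was called small artery when the UMIs of Atp13a3, Stk32a, Sgcz and Adgrg6 came to 3 or more and to at least 60% of all UMIs in 5 marker sums. The other sums were general capillary (Glp1r, Sema3c, Adgrl3 and Aplnr), aerocyte (Fibin, Emp2, Rgs6 and Tbx2), vein (Slc6a2, Mmp16, Kirrel3 and Car8) and lymphatic (Prox1, Mmrn1 and Reln). Barcodes were left out with 3 or more UMIs of the large artery genes Cytl1, Sfrp1 and Gpc6, with 2 or more of Esm1 and Gzmk, or with 3 or more of the cycling genes Mki67 and Top2a. The rule held for 863 of 10785 kept aKO barcodes and 790 of 15651 kept aWT barcodes, or 1653 of 26436 in all. Because these 26 genes chose the cells, their levels describe the choice and are no finding.

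Small arteries and arterioles carry blood from the large pulmonary arteries to the alveolar capillaries and, through the muscle around them, set resistance to flow. Their endothelium keeps an arterial programme that Notch signalling, flow and bone morphogenetic protein (BMP) signals maintain. BMP9 in blood binds the receptor ALK1 (gene Acvrl1) with the co-receptor endoglin, and SMAD proteins then switch on genes such as Id1, Id3 and Smad6. Loss of ALK1 function causes hereditary hemorrhagic telangiectasia type 2, in which arteries join veins without a normal capillary bed between them.

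Both libraries came from lungs of C57BL/6J mice aged 10 to 12 weeks, dissociated with Dispase and DNase I, and both held cells sorted for tdTomato driven by VE-cadherin-cre, an endothelial cre line. The series is described as a model of that disease, but the labels used here name no deleted gene for aKO and do not say how many animals each library holds. There was 1 library per group. No difference between aKO and aWT therefore has a replicate check, no p-value is given, and genotype cannot be told apart from animal, sex or library. The X-inactivation RNA Xist stood at 774 CPM (a gene's UMIs per 1000000 UMIs summed over the barcodes) in aKO small artery barcodes and 3.80 CPM in aWT ones. The Y-linked genes Ddx3y and Uty had 0 and 1 UMIs in aKO, against 362 and 430 in aWT. Depth also differed, with a median of 6720 UMIs and 2881 genes per aKO small artery barcode, against 3980.5 UMIs and 2012 genes in aWT. The summed small artery barcodes held 6387505 UMIs in aKO and 3419867 in aWT. Of 48 barcode sequences found in both libraries, 1 was a small artery barcode in aKO and 1 in aWT.

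Levels of genes the rule did not use were compared first. Plac8, a cysteine-rich protein gene, is itself a marker of the small artery label. Members and gene lists were chosen with earlier results of these data known, so its level is a description and no independent check. Plac8 stood at 715 CPM in aKO and 898 CPM in aWT small artery barcodes. General capillary barcodes, chosen by a rule of the same form, had 58.6 and 38.4 CPM in aKO and aWT, and aerocytes, the other capillary cell of the alveolus, had 14.7 and 14.1 CPM. Large artery barcodes, which met the same rule but with 3 or more UMIs of Cytl1, Sfrp1 and Gpc6, had 826 and 664 CPM, and vein barcodes 373 and 275 CPM. Plac8 thus stood far above capillary levels in both libraries, but did not separate small from large arteries and was not absent from veins. The connexin gene Gja5 and the kinase gene Bmx, both arterial, stood at 250 and 380 CPM in aWT small artery barcodes, against 10.0 and 15.3 CPM in aWT general capillary barcodes. In aKO they stood at 42.1 and 50.1 CPM, against 1.91 and 5.32 CPM in general capillary barcodes. A few broader arterial genes did not set the aKO cells apart from capillaries. The Notch target Hey1 was at 36.9 CPM in aKO small artery barcodes, against 44.2 CPM in aKO general capillary barcodes, and the transcription factor gene Sox17 at 137 against 156 CPM.

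**Figure D1:**
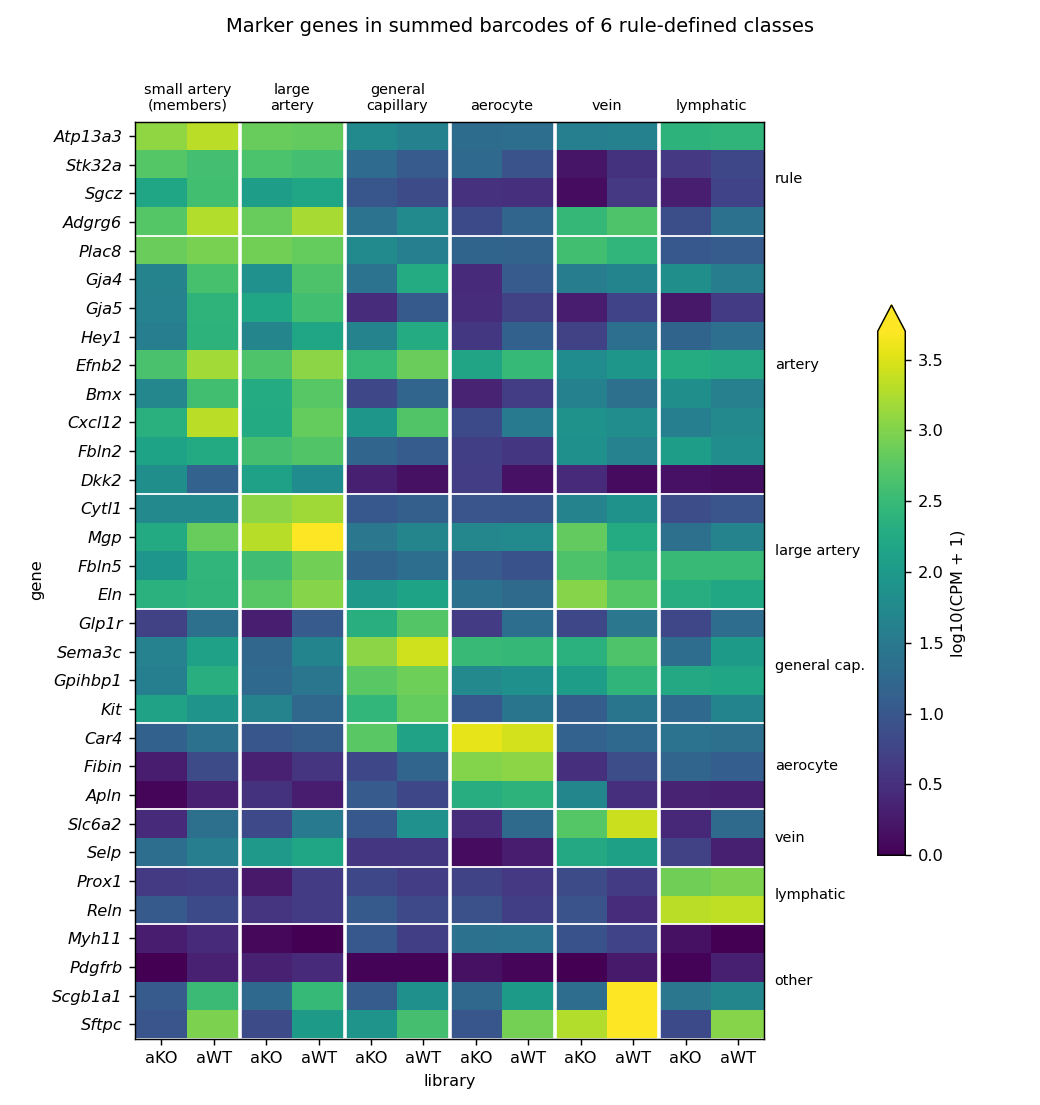
Levels of marker genes, as log10 of CPM plus 1 in summed barcodes (color), for 6 classes with aKO left of aWT in each. Plac8, Gja5, Bmx and Fbln2 stood higher in small and large artery columns than in general capillary and aerocyte columns; the first 4 rows, Cytl1, Glp1r, Sema3c, Fibin, Slc6a2, Prox1 and Reln chose the classes.

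Marker lists of other cells were summed over the small artery barcodes. Of 12 pan-endothelial genes all were measured, at 12968 CPM summed in aKO and 10493 CPM in aWT. Leukocyte markers summed to 3.76 CPM in aKO and 150 CPM in aWT, almost all of it Lyz2, and the defining gene Ptprc was at 0 UMIs in both. Smooth muscle and pericyte markers summed to 34.4 CPM in aKO and 125 CPM in aWT. Tagln was at 7.83 CPM in aKO and 56.4 CPM in aWT, Acta2 at 22.7 and 49.4 CPM and Pdgfrb at 0 and 1.17 CPM. At least 3 mural UMIs (Acta2, Tagln, Myh11, Notch3 and Pdgfrb) were held by 38 of 790 aWT barcodes and 17 of 863 aKO barcodes. The 38 held 284 of the 388 mural UMIs of aWT, and had a median of 45.5 pan-endothelial UMIs. Erythroid and platelet markers stayed at 3.13 CPM in aKO and 15.2 CPM in aWT. Alveolar and airway epithelial markers summed to more, at 267 CPM in aKO, of which 243 CPM was Hopx, and 1663 CPM in aWT. In aWT, 14 of the 790 barcodes had at least 3 airway epithelial UMIs or at least 20 surfactant UMIs, and these 14 held 4081 of the 4720 surfactant and airway UMIs. They had a median of 6 pan-endothelial UMIs, against 36 over all aWT small artery barcodes. In aKO 2 of 863 barcodes met the same limits. Results that rest on these barcodes are given without them as well.

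Membership itself drew on different genes in the libraries. Atp13a3, a P5-type ATPase gene, gave 50.0% of the small artery marker UMIs in aKO and 43.7% in aWT. Adgrg6, an adhesion G protein-coupled receptor gene, gave 21.7% in aKO and 39.9% in aWT, and the kinase gene Stk32a 22.1% in aKO and 8.34% in aWT. Their CPM differed too, with Adgrg6 at 526 in aKO and 1878 in aWT, and Atp13a3 at 1212 in aKO and 2054 in aWT. The share of kept barcodes that met the rule was 8.0% in aKO (exact binomial 95% interval 7.5 to 8.53%) and 5.05% in aWT (4.71 to 5.40%). With every barcode thinned to 2000 UMIs it was 9.27% and 5.53%. These intervals cover counting error only. The cell sort, the rule genes' own levels and depth all enter this share, so it is not read as a number of cells in the lung.

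At the limits of the rule Plac8 did not fall evenly, and in aWT it was no lower just outside the 60% limit. Barcodes with exactly 3 small artery UMIs, just inside, numbered 43 in aKO and 29 in aWT and had Plac8 at 316 and 479 CPM. Those with 2 UMIs, just outside, numbered 34 and 16 and had Plac8 at 308 and 302 CPM. Where small artery UMIs made up 60 to 70% of the class sum, Plac8 was at 646 CPM in aKO (130 barcodes) and 453 CPM in aWT (88 barcodes). At 50 to 60%, outside the rule, it was 403 CPM in aKO (106 barcodes) and 470 CPM in aWT (120 barcodes).

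Against general capillary barcodes of the same library, small artery barcodes stood higher in Cd55, Mecom and Vcam1, among other genes. As cells of 1 library were divided by their own counts, these values are descriptions. Cd55, which shields cells from complement, was at 306 CPM in aKO small artery barcodes and 10.8 CPM in aKO general capillary barcodes, and at 275 and 6.06 CPM in the same classes of aWT. Mecom, a transcription factor gene, stood at 838 against 52.4 CPM in aKO and 1879 against 70.9 CPM in aWT. The leukocyte adhesion receptor gene Vcam1 was at 348 against 26.6 CPM in aKO and 290 against 13.6 CPM in aWT. All 3 genes differed between the classes by at least 3.48 on the log2 scale in both libraries. The bicarbonate transporter gene Slc4a4, the heparan sulfate editing gene Sulf1, Cdh13 (T-cadherin), Sorbs2, Myof (myoferlin), Arhgap42 and Plac8 completed the 10 genes highest over general capillaries. Cdh13 was the one of these that differed most between libraries, at 1530 CPM in aKO and 236 CPM in aWT small artery barcodes.

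Other genes stood far lower in small artery than in general capillary barcodes of both libraries. Chrm2, a muscarinic acetylcholine receptor, was at 4.07 CPM in aKO small artery barcodes against 165 CPM in general capillaries, and at 4.09 against 119 CPM in aWT. Scn7a, a sodium channel family gene, was at 4.70 against 201 CPM in aKO and 53.5 against 741 CPM in aWT. Edil3, an integrin ligand, was at 5.17 against 208 CPM in aKO and 12.9 against 184 CPM in aWT. Hs3st1, Prkcq, Reep1, Tspan8, 4930554G24Rik, Aff3 and Ccdc85a were the others of the 10 lowest.

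Against large artery barcodes the small artery cells were lower in Mgp, Clu and Efna5 and higher in Lpl, Kit and Cxcr4, among other genes. Mgp (matrix Gla protein, an inhibitor of calcification and BMP ligands) was at 180 CPM in aKO small artery barcodes and 2026 CPM in aKO large artery barcodes. In aWT it was at 680 and 5869 CPM in the same classes. Clu (clusterin) stood at 12.8 against 141 CPM in aKO and 13.7 against 279 CPM in aWT, and the ephrin ligand gene Efna5 at 52.8 against 305 CPM in aKO and 65.2 against 447 CPM in aWT. Cpe, Bgn (biglycan), Zfpm2, Selp (P-selectin), S100a6 and Fam135a were also among the 10 lowest. On the high side, Lpl (lipoprotein lipase) stood at 116 against 38.9 CPM in aKO and 190 against 32 CPM in aWT. The receptor gene Kit was at 136 against 43.8 CPM in aKO and 82.2 against 16 CPM in aWT, and the Cxcl12 receptor gene Cxcr4 at 65.9 against 22.3 CPM in aKO and 93.9 against 16.9 CPM in aWT. Car2, Aff3, Rapgef4, Gm30382, Arap2, Nckap5 and Vav3 completed the 10 highest. Of these 10, general capillary barcodes had a higher level than small artery barcodes in both libraries for all but Cxcr4.

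Within the small artery barcodes, levels also differed along bands of UMIs of the rule genes, as a description only. Mgp was at 122 CPM in the 603 aKO barcodes with no large artery UMI, 293 CPM in the 146 with 1 and 292 CPM in the 114 with 2, at median depths of 6089, 7785 and 8157.5 UMIs. In aWT the values were 460 CPM in 637 barcodes, 1156 CPM in 102 and 1979 CPM in 51. The elastic fibre genes Fbln5 and Fbln2 were also higher with large artery UMIs, Fbln5 at 69.2, 114 and 130 CPM in aKO and 232, 351 and 562 CPM in aWT. At the capillary end, Gpihbp1, the endothelial anchor of lipoprotein lipase, was at 104 CPM in 276 aWT barcodes with no general capillary UMI, 175 CPM in 292 with 1 to 2 and 365 CPM in 222 with 3 or more. In aKO it was at 26.5, 28.8 and 65.8 CPM in 363, 298 and 202 barcodes. Cxcl12, a chemokine of arterial endothelium, was higher with more general capillary UMIs in both libraries, at 158, 245 and 287 CPM in aKO and 1301, 1832 and 2967 CPM in aWT. In aKO it also rose with the small artery marker UMIs. It was at 177, 201 and 257 CPM with 3 to 9, 10 to 19 and 20 or more of them, at median depths of 3229.5, 6740 and 10055 UMIs. These bands are therefore not read as a gradient from artery to capillary, and the part of depth was not tested.

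The comparison of aKO with aWT asked how small artery cells differ in the disease model. UMIs were summed over the barcodes of each library and scaled to CPM, and the log2 ratio was taken after adding 5 CPM to both, which understates changes of low genes. Among 4488 genes with at least 50 CPM in 1 library, 280 (6.24%) stood 2-fold or more above aWT in aKO and 254 (5.66%) 2-fold or more below it, and the median log2 ratio was 0.04. The exact Poisson 95% intervals, which cover counting error only, did not overlap for 2810 of the genes.

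**Figure D2:**
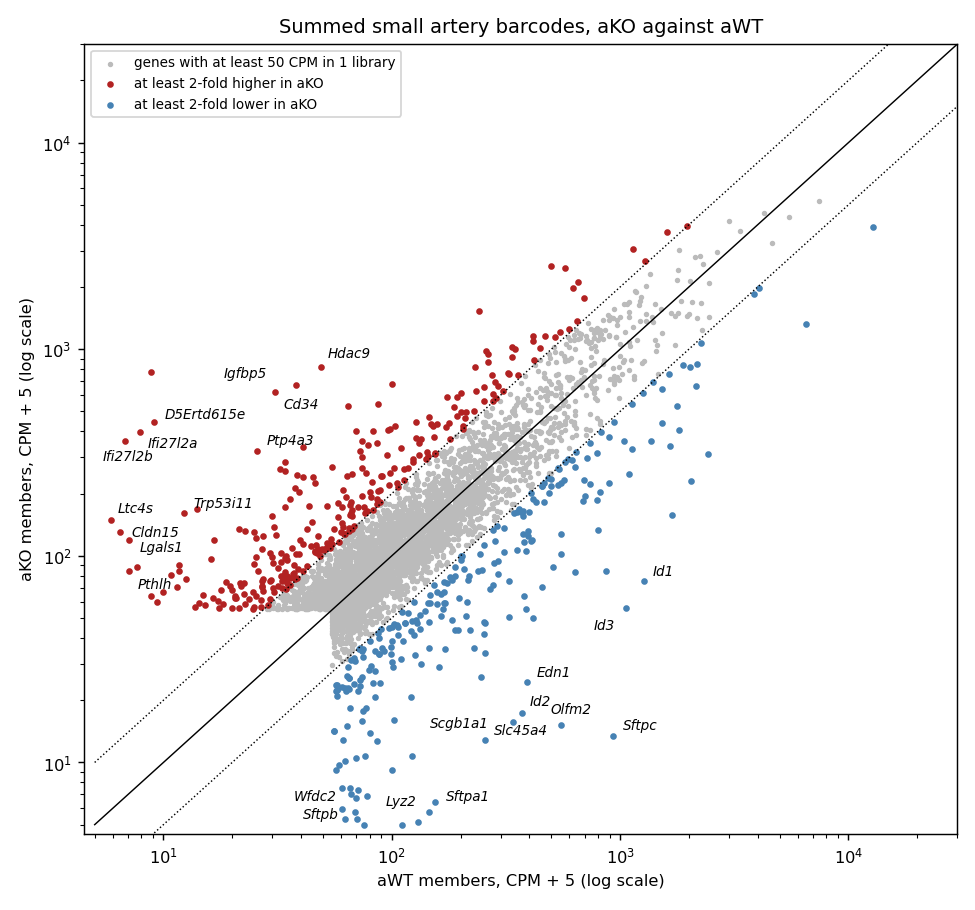
Each point is a gene, with CPM plus 5 in summed aKO small artery barcodes (vertical, log scale) against aWT (horizontal, log scale); the solid line marks equal levels and dotted lines 2-fold. The 12 genes with the highest and 12 with the lowest ratio are named, among them Cd34 at 613 against 25.7 CPM and Id1 at 70.1 against 1266 CPM.

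The 12 genes with the highest ratios were led by Ifi27l2b, Ifi27l2a and D5Ertd615e. Among the 12, those with the highest aKO levels were Hdac9, a class IIa histone deacetylase gene, Igfbp5 and Cd34. Cd34, a sialomucin of capillary and progenitor endothelium, was at 613 CPM (594 to 633) in aKO and 25.7 CPM (20.6 to 31.7) in aWT, a log2 ratio of 4.33. Hdac9 stood at 815 CPM in aKO and 43.9 CPM in aWT (log2 ratio 4.07), and Igfbp5, which binds insulin-like growth factors, at 663 CPM in aKO and 33.0 CPM in aWT (4.13). Without the barcodes that met the limits for epithelial UMIs, the Igfbp5 ratio was 4.97. Ifi27l2a was at 392 CPM in aKO, from 2504 UMIs, and 2.92 CPM in aWT, from 10 UMIs. Its paralog Ifi27l2b was at 355 CPM in aKO, from 2270 UMIs, and 1.75 CPM in aWT, from 6 UMIs. With so few aWT UMIs, their log2 ratios of 5.65 and 5.74 depend on the 5 CPM added. They are paralogs, and how reads that fit both were counted is not given in the sources used here.

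The rest of the 12 highest were D5Ertd615e (438 CPM in aKO, 4.09 CPM in aWT), the leukotriene C4 synthase gene Ltc4s (144 and 0.88 CPM), the claudin gene Cldn15 (126 and 1.46 CPM), the galectin gene Lgals1 (115 and 2.05 CPM), Trp53i11 (156 and 7.31 CPM), the phosphatase gene Ptp4a3 (317 and 20.8 CPM) and Pthlh, which encodes parathyroid hormone-like hormone (79.7 and 2.05 CPM). In large artery barcodes of the same libraries the aKO level was also higher for all 12, with Igfbp5 at 544 CPM in aKO and 238 CPM in aWT and Pthlh at 177 and 55.0 CPM. General capillary barcodes had lower aKO levels than small artery barcodes for several, such as Igfbp5 at 77.3 CPM, Cldn15 at 5.45 CPM and Ltc4s at 6.32 CPM. Cd34 and Hdac9 were the exceptions there, at 642 and 1785 CPM in aKO general capillaries against 88.8 and 165 CPM in aWT ones.

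Of the 12 lowest, 6 are endothelial genes described here and 6 are epithelial or myeloid genes. Olfm2, an olfactomedin family gene, was at 10.2 CPM in aKO and 546 CPM (521 to 571) in aWT, a log2 ratio of -5.18. The transporter family gene Slc45a4 was at 7.83 CPM in aKO and 252 CPM in aWT, and Edn1, which encodes the vasoconstrictor endothelin-1, at 19.4 CPM in aKO and 387 CPM in aWT. Id1, Id2 and Id3 complete the endothelial set and are given with their pathway below. In aWT large artery barcodes Olfm2 and Slc45a4 stood at 337 and 186 CPM, and in aWT general capillary barcodes at 7.44 and 9.80 CPM.

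The other 6 were the surfactant genes Sftpc, Sftpa1 and Sftpb, the club cell gene Scgb1a1, Wfdc2 and Lyz2. Sftpc stood at 8.45 CPM in aKO and 930 CPM in aWT, but aerocytes, which should lack it, had 8.65 and 838 CPM. After thinning to 2000 UMIs, Sftpc was seen in 1.40% of aKO and 22.7% of aWT small artery barcodes, and in 1.74% of aKO and 23.7% of aWT aerocytes. The Sftpc shares in small artery barcodes lay below those of the aerocytes, so they are not read as expression. The other 5 genes were seen more often in aWT small artery barcodes than in aWT aerocytes, at 13.1 against 8.25% for Scgb1a1, 5.95 against 3.40% for Sftpa1, 5.80 against 4.80% for Lyz2, 2.90 against 1.30% for Wfdc2 and 2.14 against 1.58% for Sftpb. The exact intervals of the 2 classes overlapped for Lyz2, Wfdc2 and Sftpb and were apart for Scgb1a1 and Sftpa1. The 16 barcodes that met the limits for epithelial UMIs above were only part of those with such UMIs. Before thinning, 343 of 790 aWT small artery barcodes held Sftpc. Without the 16, the log2 ratio of Sftpc went to -3.53 and that of Wfdc2 to -0.98, inside 2-fold. The ratios of Scgb1a1, Sftpa1, Lyz2 and Sftpb went to -3.43, -2.08, -2.41 and -1.34. The numbers of genes past 2-fold were then 284 higher and 239 lower.

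**Figure D3:**
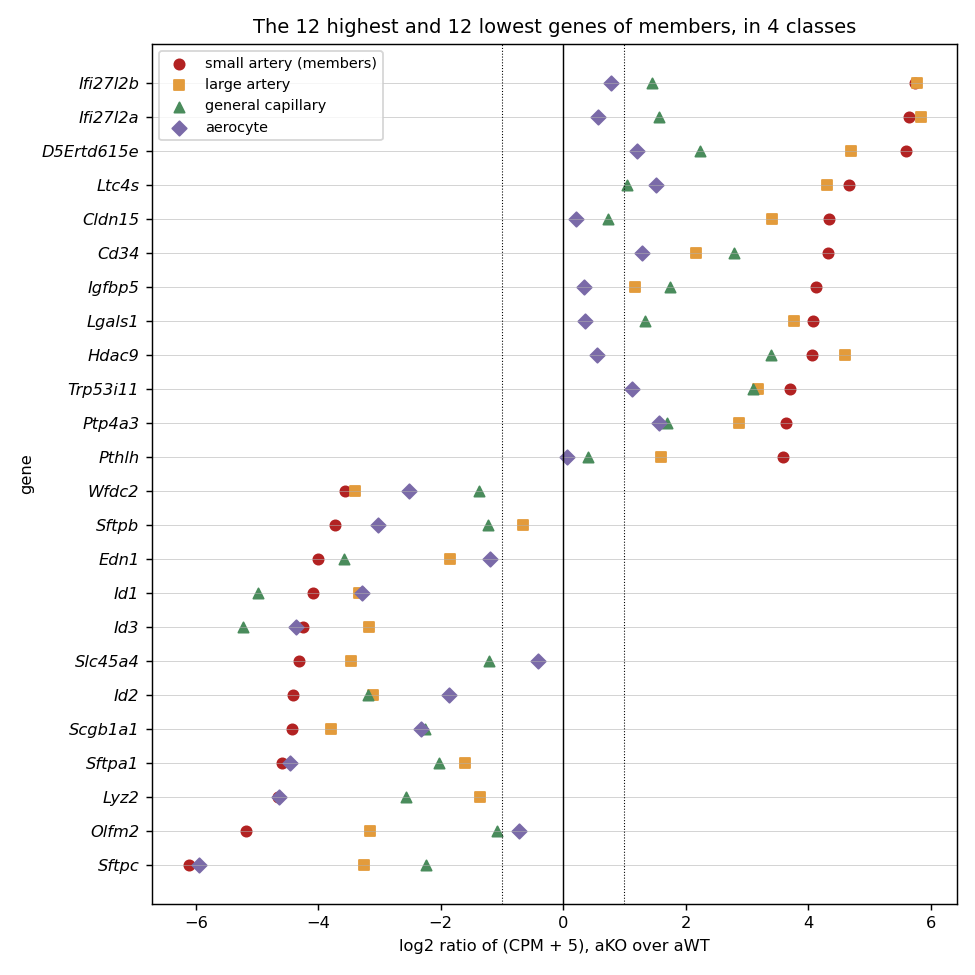
Log2 ratios of CPM plus 5, aKO over aWT (horizontal), for the 12 highest and 12 lowest genes of small artery barcodes (rows) in 4 classes of the same 2 libraries; dotted lines mark 2-fold. Igfbp5 stood at 4.13 in small artery, 1.18 in large artery and 1.74 in general capillary barcodes, and Olfm2 at -5.18, -3.15 and -1.09.

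Genes of a BMP9 and ALK1 response list, which also held the receptor genes Acvrl1, Eng and Bmpr2, were mostly lower in aKO. Of 17 measured genes in this list, 14 had aKO levels 1.5-fold or more below aWT and 1 had a higher one, with a median log2 ratio of -1.53. Over all 11093 genes with at least 5 CPM in 1 library, 12.5% were lower and 12.9% higher by 1.5-fold or more, with a median of 0.03. The counts of all further lists are to be read beside these shares. The inhibitors of DNA binding Id1, Id2 and Id3, which block helix-loop-helix transcription factors, had the lowest ratios. Id1 was at 70.1 CPM (63.8 to 76.9) in aKO and 1266 CPM (1229 to 1305) in aWT, a log2 ratio of -4.08. Id3 was at 50.7 CPM in aKO and 1056 CPM in aWT (-4.25), and Id2 at 12.4 CPM in aKO and 367 CPM in aWT (-4.42). The intervals were far apart for each of them.

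Because Id2 and Id3 had the lowest ratios of the list with a promoter in the RefSeq table used, their promoters are shown (GRCm38.p6, 250 bases before to 50 after the gene's start, 5′ to 3′ on the gene's strand). Id2 lies at chr12:25096043-25096342 on the minus strand and Id3 at chr4:136143572-136143871 on the plus strand. Capitals mark matches to GGCGCC, a GC-rich element that SMAD1 and SMAD5 bind, and to GTCTG or its complement, which SMAD4 binds. TATAAA was searched as well and was not in either window.
Id2: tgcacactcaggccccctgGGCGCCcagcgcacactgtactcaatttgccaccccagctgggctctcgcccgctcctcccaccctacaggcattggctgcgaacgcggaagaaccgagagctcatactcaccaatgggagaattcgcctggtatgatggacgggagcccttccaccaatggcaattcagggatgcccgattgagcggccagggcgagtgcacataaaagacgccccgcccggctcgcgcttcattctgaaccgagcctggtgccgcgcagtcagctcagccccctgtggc
Id3: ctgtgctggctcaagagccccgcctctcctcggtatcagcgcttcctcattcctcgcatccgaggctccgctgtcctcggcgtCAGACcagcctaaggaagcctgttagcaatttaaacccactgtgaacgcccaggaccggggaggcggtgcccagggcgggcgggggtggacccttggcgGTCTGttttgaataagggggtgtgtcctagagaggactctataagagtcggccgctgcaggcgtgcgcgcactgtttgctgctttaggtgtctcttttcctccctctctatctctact
Id2 held GGCGCC once, its first base at position -231 from the start on the printed strand. Id3 held GTCTG at -68 on the printed strand and at -167 on the other strand. Of 32851 mouse promoters of the same length, 11.9% held GGCGCC, 49.6% GTCTG and 13.6% TATAAA on either strand, so these letters are common. A match is a description of the sequence, not evidence of binding.

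The inhibitory SMAD genes, which feed back on the receptor, were also lower. Smad6 was at 153 CPM in aKO and 1675 CPM in aWT (log2 ratio -3.41), and Smad7 at 79.8 CPM in aKO and 860 CPM in aWT (-3.35). The receptors and further targets differed less. The type II receptor gene Bmpr2 was at 662 CPM in aKO and 2140 CPM in aWT (-1.69), Eng (endoglin) at 324 and 1126 CPM (-1.78) and Tspan18 at 71.1 and 210 CPM (-1.50). Tmem100, another known target, was at 1108 CPM in aKO and 1419 CPM in aWT (-0.36), inside 1.5-fold. The one higher gene was Ackr3, a scavenging receptor for Cxcl12, at 235 CPM in aKO and 40.1 CPM in aWT (2.41).

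Acvrl1 itself was at 461 CPM in aKO and 790 CPM in aWT, a log2 ratio of -0.77. It was not at 0 in aKO, where 86.2% of small artery barcodes held at least 1 UMI, but which gene and exons were removed is not given, and the assay counts the 3′ end of transcripts, so this level checks nothing about a deletion. The reporter tdTomato was at 89.2 CPM in aKO and 117 CPM in aWT. In the other classes the list's median log2 ratio was -1.23 in large artery, -1.53 in general capillary, -1.17 in aerocyte, -0.81 in vein and -0.22 in lymphatic barcodes. All classes came from the same 2 libraries. Id1 in general capillaries stood at 33.5 CPM in aKO and 1222 CPM in aWT, against 70.1 and 1266 CPM in small artery barcodes.

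The wider BMP and TGF-beta component list split both ways, with 6 of 22 measured genes higher, 9 lower and a median of -0.16. Among ligands, Bmp6 was at 128 CPM in aKO and 794 CPM in aWT (log2 ratio -2.58) and Bmp4 at 24.4 and 76.0 CPM (-1.46), whereas Tgfb1 was at 157 and 71.3 CPM (1.09). Among transducers, Smad1, which carries the ALK1 signal, was at 316 CPM in aKO and 67.3 CPM in aWT (2.15). Smad3, which carries the TGF-beta signal, was at 28.5 CPM in aKO and 5.85 CPM in aWT (1.63, and 0.91 with 20 CPM added in place of 5). Smad1 was thus higher in the library where its known targets were lower.

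Arterial identity genes were mostly lower in aKO, 14 of 22 measured genes against 1 higher, with a median log2 ratio of -1.14. The gap junction genes Gja4 and Gja5, which couple arterial endothelial cells, were at 44.8 and 42.1 CPM in aKO, against 412 and 250 CPM in aWT. Cxcl12 was at 224 CPM in aKO and 2042 CPM in aWT (-3.16), Bmx at 50.1 and 380 CPM (-2.81) and Efnb2, which encodes the arterial ligand ephrin-B2, at 434 and 1514 CPM (-1.79). All 5 genes were past 2-fold lower. Levels differed little for Sox17 (-0.11), Sox7 (-0.12), Vegfc (0.04) and Fbln2 (-0.41). Dkk2, a Wnt antagonist of arteries, was the 1 gene higher, at 69.5 CPM in aKO and 13.7 CPM in aWT. A shorter marker list for arteries of any size, without Olfm2 and Slc45a4, had 9 of 15 genes lower and 1 higher. Its median was -0.77 in small artery, -0.82 in large artery and -0.80 in general capillary barcodes.

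Of 15 measured Notch genes 2 were higher and 5 lower, with a median of -0.11, beside the 12.9% higher and 12.5% lower over all genes. The ligand gene Dll1 was at 257 CPM in aKO and 27.5 CPM in aWT (log2 ratio 3.01), while the arterial ligand gene Dll4 was at 194 and 335 CPM (-0.77). The receptor gene Notch1 was at 257 CPM in aKO and 534 CPM in aWT (-1.04), a ratio that stood just inside 2-fold under edgeR's TMM scaling (-0.99). The targets Hey1 and Hey2 were at 36.9 and 8.30 CPM in aKO and 248 and 29.8 CPM in aWT, whereas Hes1 was at 240 and 169 CPM.

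Vasomotor genes, which set arterial tone, had 12 of 26 measured genes higher in aKO and 6 lower, with a median of 0.48. Edn1 was far lower, as given above. On the dilator side, Nos3, the endothelial nitric oxide synthase gene, was at 340 CPM (326 to 354) in aKO and 73.4 CPM (64.6 to 83.1) in aWT, a log2 ratio of 2.14. The endothelin B receptor gene Ednrb was at 355 CPM in aKO and 69.3 CPM in aWT (2.28). This receptor couples to nitric oxide release in endothelium and is a marker of aerocytes, where it was at 1413 CPM in aKO and 1468 CPM in aWT. Large artery barcodes had 343 and 63.0 CPM, and general capillary barcodes 25.5 and 26.8 CPM. The adrenomedullin co-receptor gene Ramp3 was at 25.4 CPM in aKO and 1.17 CPM in aWT, and the cyclooxygenase gene Ptgs1 at 39.6 and 5.85 CPM. The potassium channel genes Kcnn4 and Kcnj2, which hyperpolarize endothelium, were at 47.4 and 63.4 CPM in aKO and 9.65 and 14.9 CPM in aWT. Calcrl, Ece1 and Ace, the adrenomedullin receptor, endothelin-converting and angiotensin-converting enzyme genes, were lower, with log2 ratios of -1.06, -1.07 and -1.04.

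Flow-response genes did not follow Nos3 and Edn1. Klf2 and Klf4, the main flow-induced transcription factor genes, were at 2139 and 829 CPM in aKO and 2018 and 738 CPM in aWT. The list had 3 of 15 genes higher and 3 lower, with a median of -0.21. Among VEGF and angiopoietin genes, 3 of 17 were higher and 6 lower, with a median of -0.40. Vegfa was at 78.7 CPM in aKO and 631 CPM in aWT (-2.92), and the receptor genes Kdr and Nrp1 at 54.0 and 220 CPM in aKO, against 165 and 893 CPM in aWT. Pgf, which binds Flt1, was at 29.3 CPM in aKO and 2.05 CPM in aWT (2.28), but its ratio was 0.60 when barcodes were thinned to 2000 UMIs before the rule.

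Matrix genes also split, with 8 of 24 higher, 4 lower and a median of 0.15. Lama4, a laminin chain of endothelial basement membrane, was at 536 CPM in aKO and 82.5 CPM in aWT (log2 ratio 2.63). The elastic fibre gene Fbln5 was at 86.9 CPM in aKO and 275 CPM in aWT (-1.61), Mgp at 180 and 680 CPM (-1.89), Col18a1 at 53.2 and 13.2 CPM (1.68) and Sparc at 364 and 130 CPM (1.46). These 4 ratios went inside 2-fold, to -0.81, -0.96, 0.90 and 0.64, when barcodes were thinned before the rule, a step that also changes which barcodes pass the large artery limit. The directions did not turn. Elastin (Eln) was at 233 CPM in aKO and 265 CPM in aWT. In the junction list, 4 of 15 genes were higher and 3 lower, with a median of 0.12. Claudin-5 (Cldn5), the main tight junction protein of endothelium, was at 3706 CPM in aKO and 1602 CPM in aWT, and VE-cadherin (Cdh5) at 686 and 1384 CPM.

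Guidance genes had 5 of 23 higher and 10 lower, with a median of -0.38. Slit3 was at 31.0 CPM in aKO and 223 CPM in aWT (log2 ratio -2.66), Ntn4 (netrin-4) at 126 and 392 CPM (-1.60) and Sema7a at 66.4 and 14.6 CPM (1.86). Leukocyte adhesion and chemokine genes had 1 of 11 higher and 7 lower, with a median of -0.92. E-selectin (Sele) was at 31.0 CPM in aKO and 86.0 CPM in aWT (-1.34) and Icam1 at 69.0 and 135 CPM (-0.92), while Vcam1 (0.26) and Icam2 (0.23) stayed inside 1.5-fold. Alcam was at 1.88 CPM in aKO and 73.1 CPM in aWT, but without the barcodes that met the limits for epithelial UMIs its log2 ratio was -0.28. The same held for Sema3e, whose ratio of -1.99 went to -0.27.

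Immune genes did not change as 1 programme. MHC class II genes were near 0 in small artery barcodes, with Cd74 at 0.94 CPM in aKO and 36.0 CPM in aWT and 3 of 4 measured genes lower. MHC class I genes had 4 of 14 higher and 1 lower (median 0.23), with H2-D1 at 2675 CPM in aKO and 1278 CPM in aWT, a log2 ratio of 1.06 that was 0.92 after thinning. Interferon-response genes had 6 of 24 higher and 3 lower, with a median of -0.12, beside 12.9% higher and 12.5% lower over all genes. Beside Ifi27l2a and Ifi27l2b, the classical members Isg15, Ifit1 and Ifit3 were at 86.6, 24.3 and 19.4 CPM in aKO and 92.4, 21.6 and 21.1 CPM in aWT. Bst2, which tethers viruses, was lower, at 287 CPM in aKO and 609 CPM in aWT.

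The list of galectin, S100, annexin and Ly6 genes had the highest median, 1.42, with 11 of 16 genes higher and 0 lower. It includes Cd34 and Lgals1, given above among the 12 highest genes, and was likewise chosen with earlier results known. S100a10 and Anxa2, which pair at the cell surface to bind plasminogen, were at 670 and 609 CPM in aKO and 95 and 195 CPM in aWT. S100a6 was at 253 CPM in aKO and 29.2 CPM in aWT (log2 ratio 2.91), and Ly6c1 at 2526 and 491 CPM (2.35). In coagulation and fibrinolysis, 5 of 12 genes were higher and 1 lower, with a median of 0.52. Vwf, the platelet-binding von Willebrand factor, was the lower gene, at 305 CPM (291 to 319) in aKO and 2418 CPM (2366 to 2471) in aWT, a log2 ratio of -2.97. Plaur, the urokinase receptor, was at 404 CPM in aKO and 93.6 CPM in aWT (2.05). Vwf also differed in large artery barcodes, at 783 CPM in aKO and 2596 CPM in aWT.

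**Figure D4:**
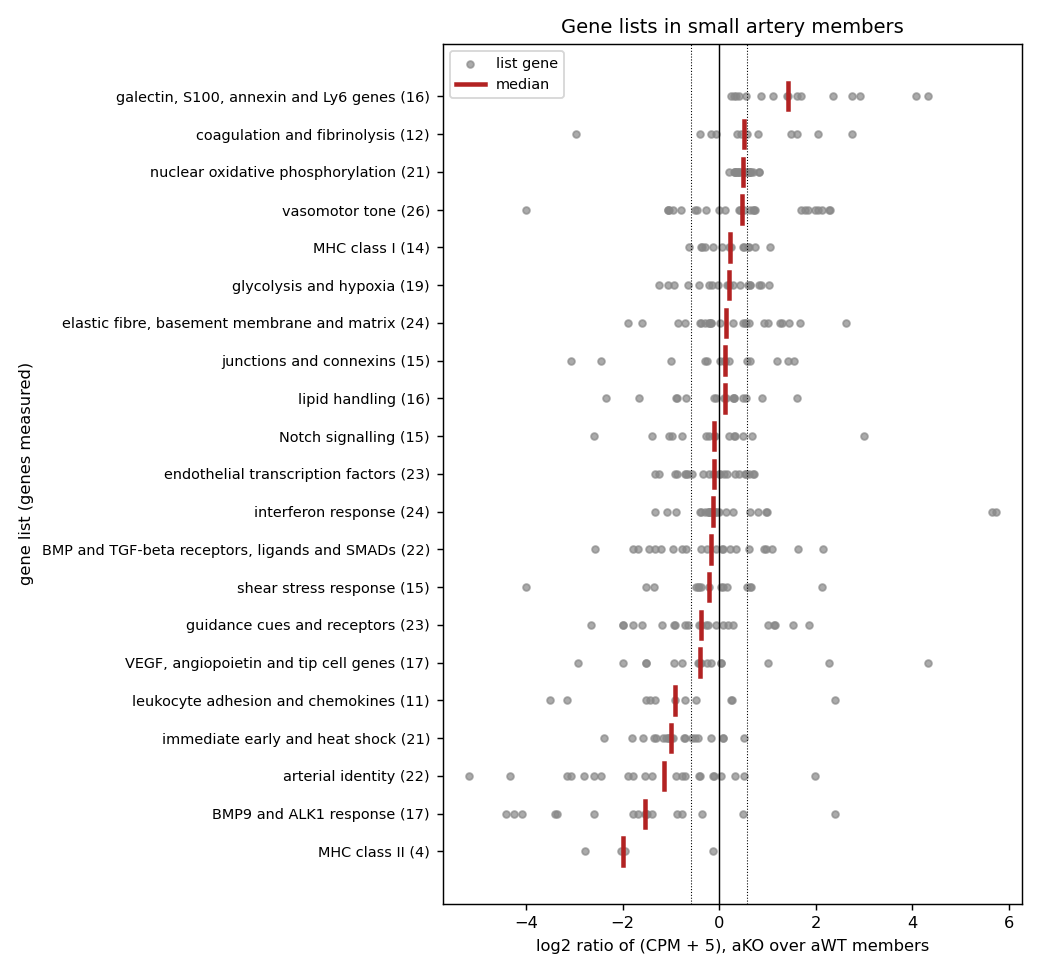
Log2 ratios of CPM plus 5, aKO over aWT small artery barcodes (horizontal), for genes of 21 lists (grey points, number measured in brackets) with the median of each list (red bar); dotted lines mark 1.5-fold. Medians ran down the page from 1.42 for galectin, S100, annexin and Ly6 genes to -1.53 for BMP9 and ALK1 response genes and -1.99 for 4 MHC class II genes.

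Among stress and metabolic genes, 14 of 21 immediate early and heat shock genes were lower in aKO and 0 were higher, with a median of -1.0. Such genes respond to tissue dissociation, and their part in other differences was not tested. Fos was at 229 CPM in aKO and 690 CPM in aWT (log2 ratio -1.57) and Hspa1a at 845 and 2163 CPM (-1.35), while Jund was at 1175 and 816 CPM (0.52). Nuclear genes of oxidative phosphorylation had 8 of 21 higher and 0 lower, all within 2-fold, with a median of 0.50. Glycolysis and hypoxia genes had 6 of 19 higher and 4 lower, with a median of 0.21. The hypoxia-inducible factor gene Epas1, highly expressed in lung endothelium, was at 635 CPM in aKO and 1518 CPM in aWT (-1.25). In lipid handling, 2 of 16 genes were higher, near the 12.9% of all genes, and 5 lower (median 0.11). Gpihbp1 was at 38.7 CPM in aKO and 216 CPM in aWT (-2.34) and Fabp5 at 87.7 and 25.1 CPM (1.62). Endothelial transcription factor genes had 3 of 23 higher, beside 12.9% of all genes, and 7 lower (median -0.11). The higher ones were Fli1, Foxf1 and Nr2f2, at 370, 493 and 31.0 CPM in aKO and 225, 296 and 18.4 CPM in aWT. Among the lower ones, Tbx3 was at 60.3 CPM in aKO and 159 CPM in aWT (-1.33) and Sox18 at 381 and 706 CPM (-0.88). Erg, at 340 CPM in aKO and 232 CPM in aWT, stayed inside 1.5-fold.

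Sums can be carried by a few cells, so barcodes with at least 1 UMI were counted after thinning each to 2000 UMIs. This left 787 of 863 aKO and 655 of 790 aWT barcodes. Id1 was seen in 9.15% of aKO (exact 95% interval 7.23 to 11.4%) and 78.9% of aWT small artery barcodes (75.6 to 82.0%). In aerocytes, which also respond to BMP9, it was 17.1% of 979 aKO and 83.5% of 2146 aWT barcodes. Their unthinned median depths were 5591 and 4572 UMIs. Smad6 was seen in 22.1% of aKO and 89.9% of aWT small artery barcodes, against 25.1% and 65.9% of aerocytes. The aKO shares of both genes in small arteries were thus no higher than in aerocytes. Gja4 was seen in 5.59% of aKO and 50.5% of aWT, against 0.41% and 1.77% of aerocytes. Edn1 was seen in 2.16% of aKO and 41.1% of aWT, against 0.61% and 2.70% of aerocytes. The lower sums in aKO thus went with fewer barcodes holding a UMI. Unthinned, Id1 was seen in 22.6% of aKO and 85.4% of aWT, Smad6 in 54.0% and 93.9%, Gja4 in 17.7% and 61.3%, and Edn1 in 5.33% and 49.5%.

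**Figure D5:**
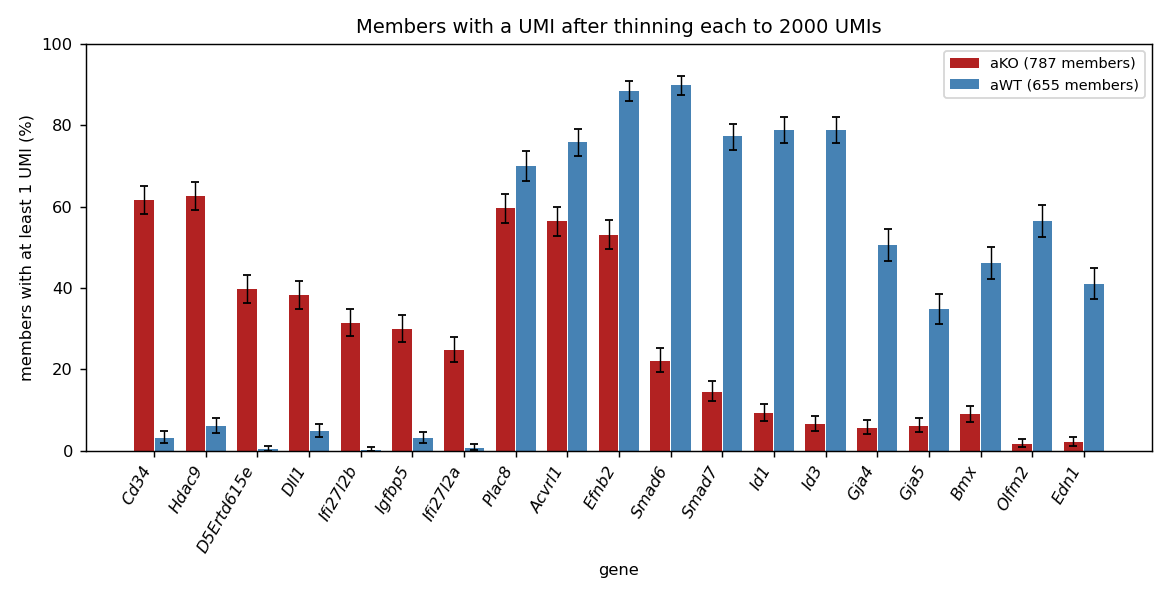
Share of small artery barcodes with at least 1 UMI of a gene (vertical, percent) after thinning to 2000 UMIs, in 787 aKO (red, left) and 655 aWT barcodes (blue, right), with exact binomial 95% intervals for counting error. Cd34 stood at 61.6% in aKO and 3.21% in aWT, Smad6 at 22.1% and 89.9%, and Plac8 at 59.6% and 70.1%.

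Genes higher in aKO differed in how widely they were seen. Hdac9 was seen in 62.6% of thinned aKO barcodes and 5.95% of aWT ones, against 13.6% and 9.97% of aerocytes. Cd34 was seen in 61.6% of aKO and 3.21% of aWT, although aerocytes held it in 88.3% and 61.8%. The aWT share of Cd34 in small artery barcodes was thus far below that of capillary cells of the same library. Ifi27l2b was seen in 31.4% of aKO and 0.15% of aWT, and Igfbp5 in 30.0% and 3.05%, against 0.72% and 2.86% of aKO aerocytes. Unthinned, Hdac9, Cd34, Ifi27l2b and Igfbp5 were seen in 78.9%, 81.0%, 49.0% and 36.8% of aKO small artery barcodes and in 9.75%, 9.24%, 0.63% and 6.46% of aWT ones.

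Some of these genes were concentrated in few aKO cells. The 87 barcodes with most UMIs of each gene, 10% of all, held 74.1% of Igfbp5 UMIs, 76.1% of Ifi27l2a and 78.4% of Lgals1, against 33.0% of Cd34 and 40.4% of Hdac9. Igfbp5 was at 0 in 545 of 863 aKO barcodes, while 188 had 5 or more, up to 111 in 1 barcode. The bands below were chosen after these values were seen and are given without a test. From 0 through 1 to 4 to 5 or more Igfbp5 UMIs, aKO barcodes had Mgp at 224, 177 and 79.2 CPM, Sox17 at 166, 105 and 84.0 CPM, Lgals1 at 144, 121 and 42.3 CPM and Hdac9 at 664, 1086 and 1019 CPM. Median depths in these bands were 6089, 5723 and 8540 UMIs. High Igfbp5 thus marked aKO cells with less Mgp and Lgals1, at greater depth.

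Along the Igfbp5 bands Ifi27l2a stood at 344, 308 and 547 CPM and Ifi27l2b at 366, 389 and 312 CPM. The summed UMIs of Ifi27l2a and Ifi27l2b were 0 in 320 aKO barcodes, 1 to 4 in 293 and 5 or more in 250, at median depths of 4145, 6671 and 9360.5 UMIs. Along these bands Vwf was at 491, 329 and 157 CPM, Gpihbp1 at 65.7, 39.2 and 19.9 CPM, Ltc4s at 74.4, 150 and 185 CPM and Ptp4a3 at 199, 328 and 389 CPM. Igfbp5 was at 662, 698 and 634 CPM in the same bands. Bands of a UMI count rise with depth, and its part in these differences was not tested.

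A small set of aKO barcodes held many UMIs of 5 genes of the BMP9 and ALK1 list. The summed UMIs of Id1, Id2, Id3, Smad6 and Smad7 were 0 in 200 aKO barcodes, 1 to 5 in 592, 6 to 20 in 61 and over 20 in 10. In aWT the numbers were 6, 82, 333 and 369. The 10 aKO barcodes over 20 held 556 of the 2339 response UMIs of all aKO small artery barcodes. Of these 10, 9 held Xist and none held a UMI of 4 Y-linked genes, which 1 of the 863 aKO barcodes did. From the lowest band to the highest, median depths were 3746.5, 7145.5, 10608 and 15723 UMIs in aKO. In aWT they were 1576, 1742, 3011 and 5262 UMIs. The counts were not thinned, and the part of depth in these bands was not tested. For Id3, the 87 aKO barcodes with most UMIs held 88.9% of them, against 34.0% for the 79 highest in aWT. Mean Id3 UMIs per barcode were 0.375 in aKO and 4.57 in aWT, and this share rises as a gene gets sparser. For Slc45a4 it was 100% in aKO, where no barcode held more than 2 UMIs.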

How the data were processed

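Each library was a 3' v3 droplet library from sorted tdTomato+ lung cells, per the labels' protocols. The deposited values are UMI counts per gene and barcode that the authors made with Cell Ranger 7.2.0 on mm10, per the submitters' processing notes. They hold 32286 features, 11045 aKO and 15996 aWT barcodes, and each column of values belongs to 1 library.

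Barcodes were picked by the marker rule, and the members and gene lists were chosen with earlier results of these data known. Counts were summed per library and class (Python 3.11.15, scipy 1.17.1, pandas 2.3.3), scaled to CPM, and compared as log2 ratios after adding 5 CPM, over genes with at least 50 CPM in 1 library (lists: 5 CPM). The 26 genes of the rule were left out. With 1 library per group no test was run, so calls are by fold alone: 2-fold, or 1.5-fold for the 22 pathway and 13 marker lists. Exact Poisson intervals were used for CPM and exact Clopper-Pearson intervals for shares. Sex, depth and genotype go together in these libraries. Shares with a UMI were compared after thinning barcodes to 2000 UMIs.

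Named genes were the 12 highest and 12 lowest log2 ratios with Poisson intervals apart (leaving out sex-linked, immunoglobulin, haemoglobin, ribosomal protein and mitochondrial genes), up to 5 genes per pathway list by size of ratio, Acvrl1, Eng, tdTomato, rule genes and markers, and the 10 highest and 10 lowest against general capillary and large artery barcodes. Other genes of the lists, the genes shown along UMI bands and the single barcodes described were chosen after their values were seen. A few genes that the rule names are not reported here. Symbols on several identifiers numbered 38. Positions and promoters came from GENCODE and RefSeq tables of GRCm38.

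Doublets were kept. Scrublet's automatic limit marked 349 aKO barcodes and 0 aWT barcodes and so did not work in aWT; removing the highest scores was an alternative. Other alternatives were filters, rule limits, depth, pseudocounts, minimum CPM and edgeR 4.0.16 TMM scaling. The sums and fold calls were tested on simulated counts for aKO against aWT over 4186 genes, where 50 of 50 genes changed 3-fold upward and 50 of 50 changed 3-fold downward were recovered. This recovery says nothing about differences between animals or libraries.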

Additional observations from a re-analysis of the deposited data

Results flagged for a closer look

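For 11 genes the aKO over aWT log2 ratio passed 2-fold in small artery barcodes in one direction and in another class of the same 2 libraries in the other. With 1 library per group none of these differences between classes was tested.

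Against vein barcodes there were 6 such genes. Mgp was lower in aKO small artery barcodes (log2 ratio -1.89) and higher in aKO vein barcodes (1.75), at 636 CPM in aKO and 185 CPM in aWT veins. The ligand gene Bmp4 had ratios of -1.46 in small artery and 1.87 in vein barcodes, Ccn1 -1.35 and 1.08, Psen2 -1.71 and 1.48, and the actin-binding gene Tagln -2.26 and 2.25. Tagln is a smooth muscle marker, and that marker list summed to 34.4 CPM in aKO and 125 CPM in aWT small artery barcodes; its part in the Tagln ratio was not tested. Fabp5, a fatty acid-binding protein gene, went the other way, at 1.62 in small artery and -1.09 in vein barcodes.

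Against general capillary barcodes, Ccn2 had ratios of -1.01 in small artery and 1.01 in general capillary barcodes, and Ltbp1, which binds latent TGF-beta, 1.06 and -1.40. The bradykinin receptor gene Bdkrb2 was at -1.13 in small artery barcodes and 1.03 in aerocytes. Against lymphatic barcodes, Rbp7, a retinol-binding protein gene, stood at -3.51 in small artery and 1.19 in lymphatic barcodes, and Bgn at -1.15 and 1.03. Rbp7 was at 5.79 CPM in aKO and 118 CPM in aWT small artery barcodes.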

How the results depend on the processing

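No paired analysis was possible because each group had 1 library. The share of barcodes meeting the rule depended on its limits. In aKO it was 9.62% when at least 1% mitochondrial UMIs was required, 7.31% with 5 small artery UMIs, 5.28% with 80% of the class sum, 5.59% with no large artery UMI, 3.37% with no general capillary UMI and 9.27% after thinning. In aWT it was 3.67% with 80% of the sum, 4.07% with no large artery UMI, 1.76% with no general capillary UMI, 5.53% after thinning and 5.56% without the highest Scrublet scores. With no minimum CPM the genes past 2-fold numbered 508 higher and 646 lower in aKO. The median of the BMP9 and ALK1 list was -1.73 with no general capillary UMI, with a pseudocount of 1 CPM and with a list minimum of 50 CPM, and -1.33 with a pseudocount of 20 CPM. Over all alternatives it ran from -1.73 to -1.33. TMM scaling gave 317 genes higher and 233 lower.

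Of 148 named genes, 97 passed 2-fold. All 97 kept their sign under the alternatives run, and 77 stayed past 2-fold in each. Those that did not included Bgn and Mecom, at -0.47 and -0.84 after thinning, and Hey2 at -0.82 with a pseudocount of 20 CPM. The part of depth in which barcodes met the large artery limit was not tested. Differences between animals could not be measured.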

Other observations

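Markers of the neighbouring vessel types, other than those in the rule, differed between aKO and aWT within small artery barcodes. Of 8 measured general capillary markers, 6 were lower in aKO by 1.5-fold or more and 1 was higher, with a median log2 ratio of -1.04. The median of this list was also negative in general capillary (-0.999), vein (-1.08), aerocyte (-0.92), lymphatic (-0.48) and large artery barcodes (-0.24). The drop was thus not limited to small artery barcodes. Of 7 large artery markers 4 were lower and 1 higher (median -0.94). Their median was -0.92 in large artery and -0.54 in general capillary barcodes. It was 0.02 in lymphatic, 0.30 in aerocyte and 0.999 in vein barcodes. Differences between classes in these lists were not tested. Aerocyte markers split 3 higher and 3 lower of 7 (median -0.29), and vein markers 3 and 3 of 7 (median 0.26), Vwf among the lower ones. Lymphatic markers had 2 of 5 higher and 0 lower (median 0.49). Pan-endothelial markers had 4 of 12 higher and 3 lower (median 0.12), with Pecam1 at 2010 CPM in aKO and 1287 CPM in aWT and Ramp2 at 3028 and 1812 CPM.

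Among markers of non-endothelial cells, 11 of 12 epithelial markers were lower in aKO (median -2.37) and Hopx was higher, at 243 CPM in aKO and 61.7 CPM in aWT. In aWT, 14 barcodes held 4081 of the 4720 surfactant and airway UMIs. Thinned aWT aerocytes held Sftpc about as often as thinned aWT small artery barcodes, so this count is not read as expression. Without the barcodes that met the epithelial limits, log2 ratios were -3.53 for Sftpc, -3.43 for Scgb1a1, -2.08 for Sftpa1 and -1.34 for Sftpb. All 3 measured smooth muscle and pericyte markers were lower (median -0.97), both measured fibroblast markers were higher (summed list 31.2 CPM in aKO and 7.02 CPM in aWT), and the 1 measured leukocyte marker, Lyz2, was lower. No erythroid or platelet marker reached 5 CPM. Of 6 sex-linked genes 2 were higher and 4 lower.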
